A study of Homo sapiens with 9 samples.

Results

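Focal adhesions are the plaques through which integrins grip the extracellular matrix and hold the ends of actin stress fibers. On the inner face of the membrane, talins and kindlins bind the integrin tail and switch the receptor on, the ILK-PINCH-parvin complex and the tensins tie it to actin, and the kinases FAK and Src signal through scaffolds such as paxillin and p130Cas to drive protrusion. Zyxin and its LIM-domain relatives gather on the actin side, where they respond to tension, and keratinocytes depend on these plaques to crawl over a wound. The adaptors, kinases and scaffolds of this structure were followed here in HaCaT keratinocytes, as a list of 37 genes that left out the integrins themselves and vinculin. Members were found by symbol among the array's probe sets (groups of probes for a transcript): 35 of the 37 had at least 1 probe set listed for that gene alone, 127 probe sets in all, out of 19775 genes measured. CRK and PAK1 had no such probe set and were not analysed here.

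HaCaT is an immortalised human epidermal keratinocyte line. Total RNA from 3 lines was hybridised to 9 arrays, 3 per line. The NLS-actin line stably expressed β-actin fused to GFP and carrying a nuclear localization sequence, which brings actin into the nucleus; the WT-actin line stably expressed β-actin-GFP without that sequence; and the parental HaCaT line carried neither construct. Each actin line was a single G418-selected GFP-positive population, so an effect of the construct and a difference between independently derived populations cannot be told apart, and the parental cells were not described as having been transfected or selected. The sources used here do not say whether the replicates were separate cultures, and p-values measure only the spread between arrays. The question put to these arrays was whether actin in the nucleus changes the expression of adhesion and cytoskeletal genes. Values are bulk signals, in which a large change in some cells and a smaller change in all of them cannot be told apart.

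The values were MAS5 signals, an intensity that the authors scaled to a common trimmed mean (500.04 to 500.06 over the arrays), and the median signal was 29.67 to 43.26. The 7 keratinocyte markers measured summed to 57267 to 62877 in NLS-actin cells, 50169 to 69490.3 in WT-actin cells and 40656 to 53472 in parental cells, whereas all 11 melanocyte, immune and endothelial markers measured averaged below 100, and so did 5 of 6 fibroblast markers, with COL1A1 the exception. None of these markers passed the test in any comparison. NLS-actin replicate 2, WT-actin replicate 1 and parental replicate 2 stood apart from the other arrays of their lines across genes, and their deviations correlated with each other over the 9887 brighter genes (Pearson r = 0.79 for NLS-actin with parental, 0.597 for NLS-actin with WT-actin and 0.586 for WT-actin with parental). The ratio of the 3′ to the 5′ control probe set of ACTB, a measure of RNA integrity and labelling, was 6.957, 12.817 and 7.977 in the NLS-actin replicates, 14.912, 6.788 and 3.817 in the WT-actin replicates, and 4.998, 7.961 and 6.277 in the parental replicates. It was highest within each line on those 3 arrays. The same ratio for GAPDH was 1.688, 1.644 and 1.945 in the NLS-actin replicates and 3.069, 1.516 and 1.387 in the WT-actin replicates. In the parental replicates it was 1.604, 1.404 and 1.414. By GAPDH, only WT-actin replicate 1 was highest in its line, and NLS-actin replicate 2 and parental replicate 2 were lowest in theirs.

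The study also asked about serum response factor (SRF), a transcription factor that is held in check by monomeric actin through its cofactor MRTF and that binds the CArG box. RefSeq promoter windows (GRCh38.p14), from 250 bases before to 50 bases after a start site, were listed for 30 of the 37 genes. A CArG box was found in 4 of those 30 genes (13.3%), against 438 of 27305 genes (1.6%) among all genes with a window. A gene with more windows has more places for a match. Counted by window, the box was in 5 of 67 (7.46%) for the members, against 454 of 35116 (1.29%) for all genes. Both strands were searched, and a match is a description of the letters, not evidence of binding. The 4 windows are shown because they carry the only matches among the members, with the box in capitals: ITGB1BP1 at chr2:9423479-9423778 on the minus strand with the match starting 194 bases before the start site, LPP at chr3:188212462-188212761 on the plus strand (183 bases before), TES at chr7:116222703-116223002 on the plus strand (242 bases before) and TGFB1I1 at chr16:31472955-31473254 on the plus strand (51 bases before). The match lay in both windows of ITGB1BP1, in 1 of the 7 windows of LPP, in 1 of the 2 of TES and in 1 of the 3 of TGFB1I1.
ITGB1BP1: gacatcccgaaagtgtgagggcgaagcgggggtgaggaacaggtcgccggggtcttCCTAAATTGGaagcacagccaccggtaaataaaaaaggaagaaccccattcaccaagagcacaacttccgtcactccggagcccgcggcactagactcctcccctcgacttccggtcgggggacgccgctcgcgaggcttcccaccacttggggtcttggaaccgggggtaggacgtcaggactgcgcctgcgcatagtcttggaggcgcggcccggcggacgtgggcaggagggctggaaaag
LPP: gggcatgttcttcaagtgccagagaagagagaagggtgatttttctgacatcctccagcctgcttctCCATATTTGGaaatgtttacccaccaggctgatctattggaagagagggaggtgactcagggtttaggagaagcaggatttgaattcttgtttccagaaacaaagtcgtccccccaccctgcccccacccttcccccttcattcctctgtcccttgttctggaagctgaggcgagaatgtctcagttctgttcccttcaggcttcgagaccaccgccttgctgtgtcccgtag
TES: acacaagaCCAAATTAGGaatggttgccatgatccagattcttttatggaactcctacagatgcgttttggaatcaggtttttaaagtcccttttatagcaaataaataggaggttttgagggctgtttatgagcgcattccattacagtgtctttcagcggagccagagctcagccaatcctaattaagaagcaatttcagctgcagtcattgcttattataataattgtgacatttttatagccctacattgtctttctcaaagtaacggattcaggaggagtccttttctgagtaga
TGFB1I1: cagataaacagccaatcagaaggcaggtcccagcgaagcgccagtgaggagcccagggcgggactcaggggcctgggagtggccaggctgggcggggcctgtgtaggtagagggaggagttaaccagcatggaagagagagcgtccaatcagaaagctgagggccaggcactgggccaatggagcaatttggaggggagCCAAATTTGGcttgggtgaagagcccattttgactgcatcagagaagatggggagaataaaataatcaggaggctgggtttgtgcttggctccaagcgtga

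None of these 4 genes passed the test. On their brightest probe sets the log2 fold change in NLS-actin against parental cells was 0.00 for ITGB1BP1, 0.06 for LPP, 0.16 for TES and 0.12 for TGFB1I1, and in WT-actin against parental cells it was -0.07, 0.11, 0.28 and -0.16 in the same order. Their other probe sets above the median signal of 33.5 were lower, except 214902_x_at of LPP at 0.09 in NLS-actin against parental cells. In NLS-actin against parental cells such probe sets ran from -0.47 to 0.00 for ITGB1BP1 and from -0.86 to 0.16 for TES. Those of LPP ran from -0.75 to 0.09, with 4 of 6 negative. In WT-actin against parental cells the ranges were -0.61 to -0.07, -0.71 to 0.28 and -0.57 to 0.11 in that order. TGFB1I1 had 1 probe set.

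No measured focal adhesion gene of the list was called in any comparison. At an adjusted p below 0.05 (limma, Benjamini-Hochberg over all 19775 genes, each gene read by its brightest probe set) the test called 0 of the 35 in NLS-actin against parental cells, where it called 0.131% of all genes; 0 of 35 in WT-actin against parental cells, against 0.167%; and 0 of 35 in NLS-actin against WT-actin cells, against 0.728%. Tukey's test run gene by gene also called 0 of the 35 in each comparison. The smallest adjusted p among the members was 0.413 (TNS4) for NLS-actin against parental, 0.329 (PARVA) for WT-actin against parental and 0.127 (PARVA) for NLS-actin against WT-actin.

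At an unadjusted p below 0.05, 3 of the 35 differed between NLS-actin and parental cells (8.57%, against 6.44% of all genes): GIT2 was higher (1 of 35, with 2.48% of all genes higher), and TNS4 and NEDD9 were lower (2 of 35, with 3.96% of all genes lower). Only PARVA did so between WT-actin and parental cells, where it was higher (2.86%, against 6.69% of all genes, 2.49% higher and 4.20% lower), and 4 did between NLS-actin and WT-actin cells (11.4%, against 9.47% of all genes, 5.39% higher and 4.09% lower): KANK2 was higher, and PARVA, TNS4 and NEDD9 were lower. These shares were near the background. The median log2 fold change of the 35 was -0.12 in NLS-actin against parental (all genes -0.01), -0.02 in WT-actin against parental (all genes -0.06) and -0.05 in NLS-actin against WT-actin (all genes 0.03). Both actin lines were set against the same parental arrays, so their comparisons are not independent.

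Where the 3 arrays of a line lay wholly apart from those of another, the count was larger. NLS-actin and parental arrays did not overlap for 10 of the 35 members (28.6%, against 13.9% of all genes and 16.1% of the 11979 genes above the median signal). In 7 of them NLS-actin was lower (20.0%, against 7.50% of all genes): TLN1, ZYX, SRC, LIMS2, TNS4, NEDD9 and ARHGEF7. In 3 it was higher (8.57%, against 6.44% of all genes): PDLIM5, GIT1 and GIT2. WT-actin and parental arrays did not overlap for 3 members (8.57%, against 12.3% of all genes, 4.71% higher and 7.60% lower), with PARVA higher and TLN1 and ARHGEF7 lower. NLS-actin and WT-actin arrays did not overlap for 6 (17.1%, against 13.9% of all genes, 8.12% higher and 5.73% lower), with KANK2, TGFB1I1 and ITGB1BP1 higher and PARVA, TNS4 and NEDD9 lower. Several of these separations were small in size, and none passed the adjusted test. No exact permutation test of 3 arrays against 3 can give a two-sided p below 0.1.

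The 95% interval of the log2 fold change lay within 2-fold in either direction for 25 of the 35 members in NLS-actin against parental cells (71.4%, against 75.2% of genes above the median signal), for 28 (80.0%, against 74.9%) in WT-actin against parental, and for 25 (71.4%, against 72.2%) in NLS-actin against WT-actin. It lay within 1.5-fold for 18, 18 and 17 members in those comparisons. Between NLS-actin and parental cells the interval reached past 2-fold for TLN2, PTK2B, SRC, BCAR1, LIMS1, LIMS2, TNS1, NEDD9, GIT2 and NEXN.

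**Figure D1:**
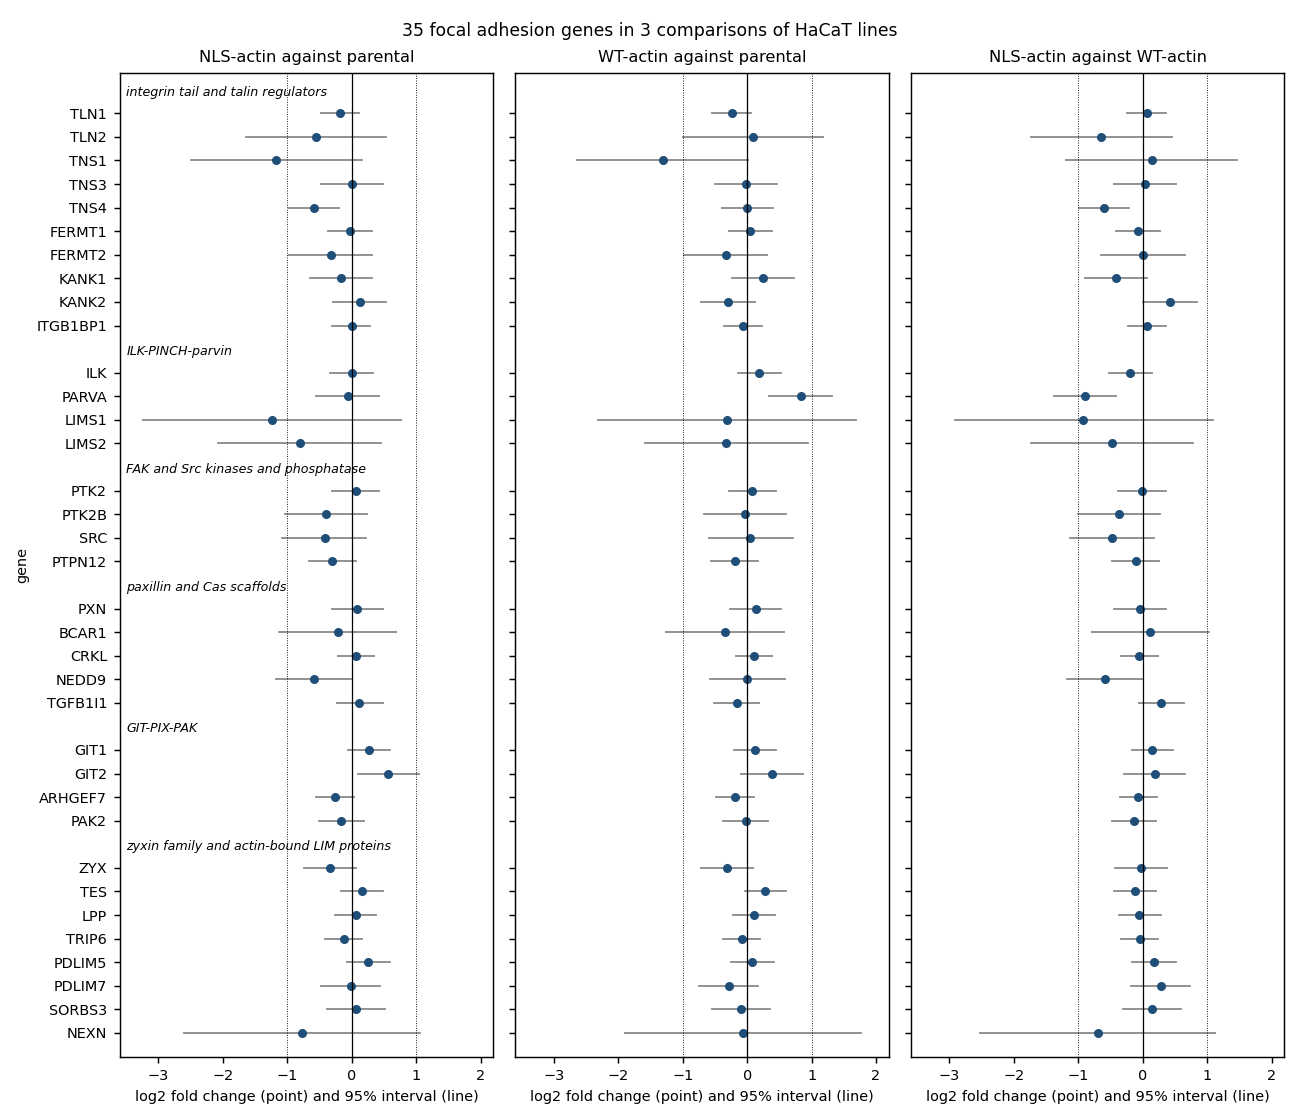
Log2 fold change (point) and its 95% interval (line) for each of the 35 genes, grouped by role, in NLS-actin against parental, WT-actin against parental and NLS-actin against WT-actin; dotted lines mark 2-fold. Most points lie near 0, PARVA stands to the right in the middle panel (0.83) and to the left in the right panel (-0.89), TNS4 lies at -0.59 and -0.60 in the outer panels, and the dim or variable genes LIMS1, TNS1 and NEXN have the widest lines.

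Among the proteins that bind the integrin tail or talin, the NLS-actin line had less TNS4 signal than either of the other lines, without passing the adjusted test. TNS4 (tensin 4, or cten) is a short tensin of epithelia that binds the integrin tail but lacks the actin-binding part of the other tensins. Its signal was 4157, 3381 and 3418 in NLS-actin cells, 4562, 5373 and 6796 in WT-actin cells, and 5027, 4842 and 6773 in parental cells. All 3 NLS-actin arrays lay below all 6 others. The mean was 3652 ± 438 in NLS-actin, 5577 ± 1131 in WT-actin and 5548 ± 1065 in parental cells (SD, n = 3 each). NLS-actin had a log2 fold change of -0.59 against parental (SE 0.18, 95% interval -0.98 to -0.20, adjusted p = 0.413) and -0.60 against WT-actin (adjusted p = 0.219), while WT-actin and parental differed by 0.00. A second, dimmer TNS4 probe set gave -0.85 and -0.74 in the same comparisons with NLS-actin. Its NLS-actin arrays (206, 107 and 139) lay below the WT-actin ones but overlapped the parental ones (383, 200.2 and 235). When the replicate number was added as a block in a fit of the NLS-actin and parental arrays alone, an alternative chosen after seeing the data, the TNS4 change passed with an adjusted p of 0.0399, the only such call of a member in any setting. That fit placed 11 of 35 members at an unadjusted p below 0.05, 3 higher and 8 lower (31.4%, against 13.4% of all genes, 1212 higher and 1442 lower), and called 378 genes in all (1.91%). Over the 21 alternatives for this comparison the adjusted p of TNS4 ranged from 0.0399 upward and its log2 fold change from -0.72 to -0.44.

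The other tensins gave no call either. TNS3 read 4623, 4674 and 5262 in NLS-actin, 6356, 5469 and 3064 in WT-actin, and 5191, 4699 and 4534 in parental cells, and its log2 fold change was 0.01 in NLS-actin and -0.02 in WT-actin against parental. TNS1, the founding tensin, was dim, at 22.4, 55.0 and 22.7 in NLS-actin, 42.9, 28.2 and 17.2 in WT-actin, and 35.4, 140.4 and 63.7 in parental cells. Its lines overlapped, and the highest value of every line came from the array that stood apart, with parental replicate 2 the highest of all. The fitted change was -1.17 in NLS-actin against parental (95% interval -2.50 to 0.16) and -1.31 in WT-actin against parental (-2.64 to 0.02), and neither passed the adjusted test (adjusted p = 0.813 and 0.750).

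TLN1, the talin of most cells and the main link from integrin to actin, was the most reproducible member. It read 1170.2, 1134 and 1183 in NLS-actin cells, 1101, 1105 and 1135 in WT-actin cells, and 1316, 1300.3 and 1334 in parental cells. Both actin lines lay wholly below the parental line, at 0.883 of its level in NLS-actin (log2 fold change -0.18, adjusted p = 0.861) and 0.846 in WT-actin (-0.24, adjusted p = 0.780). Within a line, the highest array was at most 1.04 times the lowest. Limma draws the spread of each gene toward that of genes of like brightness; Tukey's test, which uses the spread of TLN1 alone, gave WT-actin against parental an adjusted p of 0.0848, still above the threshold. TLN2, the second talin, varied between 51.6 and 236 in WT-actin cells alone, and its NLS-actin interval against parental ran from -1.64 to 0.54.

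Neither of the kindlins, coactivators of integrins beside talin, passed the test. FERMT1, the epithelial kindlin whose loss causes skin blistering, had log2 fold changes of -0.02 in NLS-actin (95% interval -0.36 to 0.32) and 0.05 in WT-actin (-0.29 to 0.39) against parental. FERMT2 had -0.32 (-0.97 to 0.32) and -0.33 (-0.98 to 0.31). The FERMT2 signals were 1754, 1154 and 1931 in NLS-actin, 981, 1659 and 2371 in WT-actin, and 2038, 1599.8 and 2353 in parental cells. The lowest FERMT2 value of every line came from the array that stood apart.

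KANK1 and KANK2 bind talin and link adhesions to cortical microtubule sites. KANK2 read 914, 1207 and 842 in NLS-actin, 763, 753 and 669 in WT-actin, and 925, 1027 and 751 in parental cells. The NLS-actin arrays lay above the WT-actin arrays and overlapped the parental ones. The log2 fold change was 0.42 against WT-actin (95% interval 0.01 to 0.84, adjusted p = 0.520) and 0.13 against parental, and the mean over all 3 KANK2 probe sets turned the difference from WT-actin to -0.07. KANK1 had the opposite sign, -0.42 in NLS-actin against WT-actin (adjusted p = 0.623). ITGB1BP1 (ICAP-1), which competes with talin for the β1 integrin tail, had 0.00 in NLS-actin and -0.07 in WT-actin against parental, and its NLS-actin arrays lay just above its WT-actin arrays (2047 to 2218, against 1979 to 2036).

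In the ILK-PINCH-parvin complex, PARVA had its highest signals in the WT-actin line, without passing the adjusted test. PARVA (α-parvin) binds ILK and actin filaments. Its signal was 990.0, 763 and 1191 in NLS-actin cells, 1702, 1905 and 1773 in WT-actin cells, and 1351, 761 and 995 in parental cells. Every WT-actin array lay above every array of both other lines, which overlapped. The mean was 981 ± 214 in NLS-actin, 1794 ± 103 in WT-actin and 1036 ± 297 in parental cells (SD, n = 3 each). On the log2 scale the fold change was 0.83 in WT-actin against parental (fold 1.78, SE 0.22, 95% interval 0.34 to 1.31, adjusted p = 0.329), -0.89 in NLS-actin against WT-actin (fold 0.539, 95% interval -1.38 to -0.41, adjusted p = 0.127) and -0.06 in NLS-actin against parental. All 7 PARVA probe sets had a positive value in WT-actin against parental, from 0.20 to 0.83, and all 7 a negative value in NLS-actin against WT-actin, from -0.97 to -0.53. Of the dimmer PARVA probe sets, only 213675_at repeated the separation of WT-actin from parental arrays. On 217890_s_at and 222454_s_at, the next in brightness, these arrays overlapped. Over the 19 alternatives its log2 fold change ranged from 0.45 to 1.04 in WT-actin against parental (adjusted p from 0.200 upward) and from -1.04 to -0.72 in NLS-actin against WT-actin (adjusted p from 0.0921 to 0.755).

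ILK, the pseudokinase at the centre of that complex, gave 3404, 3514 and 3385 in NLS-actin, 3454, 3629.9 and 4796 in WT-actin, and 3117, 3439 and 3769 in parental cells. NLS-actin differed from parental by 0.00 on the log2 scale (95% interval -0.33 to 0.33) and WT-actin by 0.19, and all lines overlapped. The PINCH genes LIMS1 and LIMS2 were read only by dim probe sets, the sole representatives not above the median signal of 33.5: LIMS1 lay between 1.38 and 19.5 and LIMS2 between 7.24 and 26.5 over the 9 arrays. Their intervals were wide (-3.24 to 0.77 for LIMS1 and -2.07 to 0.46 for LIMS2 in NLS-actin against parental). In that comparison they did not exclude a decrease of several fold in either gene, and signals this dim limit what these probe sets can show. Probe sets listed for LIMS1 together with the related genes LIMS3 or LIMS4 were left out.

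The kinases and the phosphatase of the plaque showed no called change. PTK2, which encodes focal adhesion kinase (FAK), read 4452, 5528 and 4773 in NLS-actin, 6215, 4979 and 3886 in WT-actin, and 4501, 5019 and 4571 in parental cells. Its lines overlapped, with log2 fold changes of 0.06 in NLS-actin (95% interval -0.31 to 0.43) and 0.07 in WT-actin against parental; quantile normalization turned the NLS-actin value to -0.02 and the mean of all its probe sets to -0.20. PTK2B, the related kinase Pyk2, had -0.40 in NLS-actin and -0.03 in WT-actin against parental. SRC, the kinase that pairs with FAK, read 144, 126 and 111 in NLS-actin, 126, 167 and 257 in WT-actin, and 164, 170.4 and 174 in parental cells. The NLS-actin arrays lay below the parental arrays, at a log2 fold change of -0.42 (95% interval -1.08 to 0.23, adjusted p = 0.854).

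PTPN12 encodes PTP-PEST, a phosphatase that removes phosphate from p130Cas and paxillin. Its bright probe set read 2042, 1626 and 2414 in NLS-actin, 2176, 1907 and 2419.7 in WT-actin, and 2558, 2288 and 2573 in parental cells, which put NLS-actin at -0.30 against parental on the log2 scale (adjusted p = 0.821). The thresholds of the study's gene list were an unadjusted p below 0.05 and a change over 2-fold. In NLS-actin against parental cells PTPN12 was the only measured member with a probe set past them (1 of 35, or 2.86%, against 6.41% of all genes). Both such probe sets were dim. PAK1, not among the 35, is reported by the paper as down-regulated in NLS-actin cells on its arrays and by qRT-PCR. The dimmest, 216915_s_at, read 2.42, 9.84 and 1.81 in NLS-actin, 17.2, 10.3 and 20.8 in WT-actin, and 15.6, 30.7 and 22.5 in parental cells, a log2 fold change of -2.66 (95% interval -4.38 to -0.93, adjusted p = 0.476 over all probe sets), and 216884_at gave -1.43. The sign was shared by all 3 probe sets, but the bright probe set's interval, -0.67 to 0.06, did not reach the sizes of the dim ones.

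None of the scaffolds on which these kinases act passed the test. PXN (paxillin) read 2026, 1554 and 2013 in NLS-actin, 1503, 2007 and 2273 in WT-actin, and 1884, 1543 and 1796 in parental cells, with log2 fold changes of 0.09 in NLS-actin (95% interval -0.31 to 0.49) and 0.13 in WT-actin against parental. A dim second PXN probe set, at 2.17 to 17.1, had -1.01, and the mean of both turned the NLS-actin value to -0.46. CRKL, an adaptor that docks on phosphorylated p130Cas and paxillin, had 0.06 and 0.11 in the NLS-actin and WT-actin comparisons with parental. BCAR1 (p130Cas) had -0.22 and -0.34, with intervals that reached past 2-fold. TGFB1I1 (Hic-5), a paxillin relative, read 2742, 2911 and 2848 in NLS-actin, 2629, 2194 and 2162 in WT-actin and 3209, 2169.8 and 2519.7 in parental cells. It was higher in NLS-actin than in WT-actin on every array (log2 fold change 0.29, adjusted p = 0.654), and overlapped the parental line.

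NEDD9 (Cas-L, or HEF1), the Cas-family scaffold tied to cell migration, had lower signals in NLS-actin than in either other line. It read 364, 354 and 355 in NLS-actin cells, 697, 496 and 451 in WT-actin cells, and 807, 395 and 488 in parental cells. The NLS-actin arrays were nearly identical and lay below all others, while each of the other lines spread widely. The mean was 357 ± 5.80 in NLS-actin, 548 ± 131 in WT-actin and 563 ± 216 in parental cells (SD, n = 3 each). NLS-actin was at -0.59 on the log2 scale against parental (95% interval -1.17 to -0.01, adjusted p = 0.768) and at -0.59 against WT-actin (adjusted p = 0.523), while WT-actin was at 0.00 against parental. The second probe set above the median in brightness, 202150_s_at, read 239, 323 and 236 in NLS-actin, 429.9, 342 and 567 in WT-actin, and 385, 352 and 482 in parental cells, again without overlap, at -0.61 and -0.73 against parental and WT-actin cells. Without parental replicate 1 the NEDD9 value against parental was -0.30 (adjusted p = 0.999), and over the 21 alternatives it ranged from -0.86 to -0.30, with an adjusted p from 0.198 upward.

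**Figure D2:**
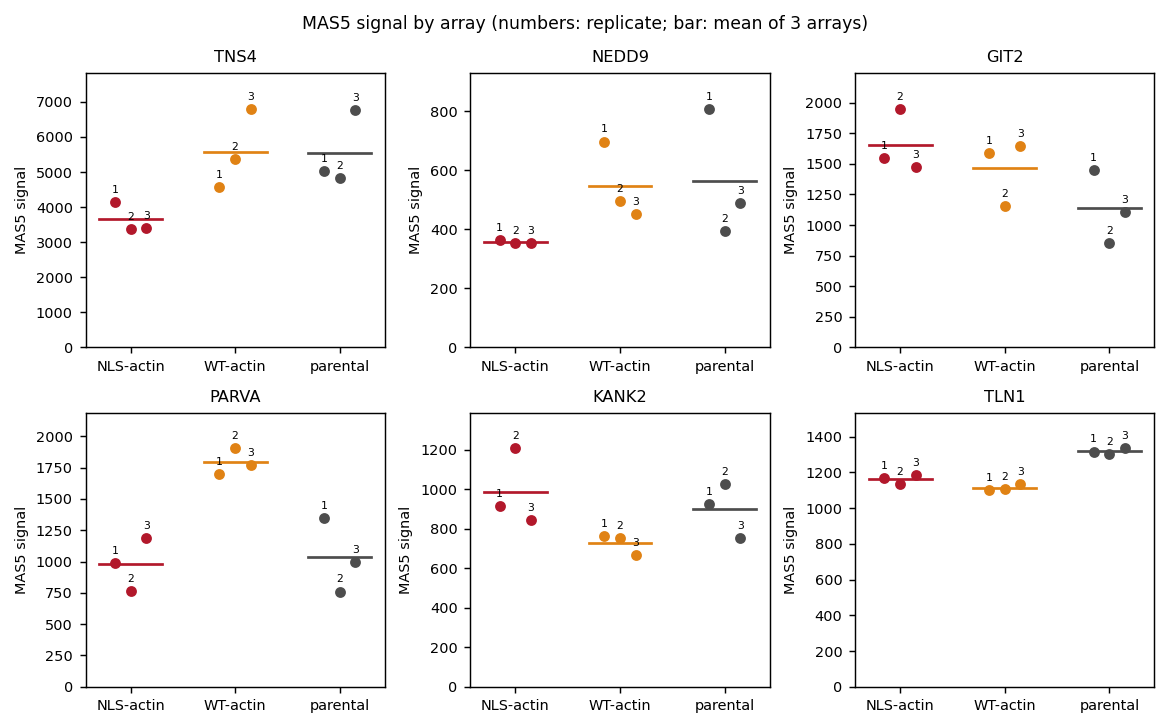
MAS5 signal of 6 members (TNS4, NEDD9, GIT2, PARVA, KANK2, TLN1) on each array, with NLS-actin left, WT-actin in the middle and parental right; points are arrays numbered by replicate and bars are means of 3 arrays. The NLS-actin points of TNS4 (3381 to 4157) and NEDD9 (354 to 364) lie below all others, the WT-actin points of PARVA (1702 to 1905) lie above all others, and the parental points of TLN1 (1300.3 to 1334) lie above both actin lines.

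In the GIT-PIX-PAK module, which speeds the turnover of adhesions, 0 of the 4 measured genes were called, and GIT2 alone had an unadjusted p below 0.05 in NLS-actin against parental cells. GIT2, a scaffold and Arf GTPase-activating protein, read 1548, 1948 and 1478 in NLS-actin, 1591, 1156 and 1646 in WT-actin, and 1447, 856 and 1104 in parental cells. All NLS-actin arrays lay above the parental ones, although the lowest NLS-actin value, 1478, was close to the highest parental value, 1447. The log2 fold change was 0.57 in NLS-actin against parental (95% interval 0.10 to 1.04, adjusted p = 0.652) and 0.38 in WT-actin against parental. Without the 3 arrays that stood apart it was 0.26. Its 4 dimmer probe sets gave -0.08, 0.12, 0.41 and 0.99 in NLS-actin against parental. GIT1 read 4951, 5334 and 4886 in NLS-actin, 4887, 3801 and 5100.2 in WT-actin, and 3683, 4282 and 4644 in parental cells, at 0.27 in NLS-actin against parental (95% interval -0.05 to 0.59, adjusted p = 0.814).

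ARHGEF7 (β-PIX), the exchange factor bound by the GIT proteins, read 3249, 3372 and 2785 in NLS-actin, 3342, 3087 and 3391 in WT-actin, and 3559, 4106 and 3582 in parental cells. Both actin lines lay wholly below the parental line, at log2 fold changes of -0.26 in NLS-actin (95% interval -0.55 to 0.03, adjusted p = 0.812) and -0.19 in WT-actin (adjusted p = 0.826). With specific probe sets only, ARHGEF7 was read by the dimmer 236416_at (mean signal 64.5) and was at -0.03 in NLS-actin against parental. Its second brightest probe set, 202547_s_at (mean signal 226), gave -0.38 there, without overlap. Over the 21 alternatives ARHGEF7 ranged from -0.31 to -0.03. A dim ARHGEF7 probe set, 235412_at, passed the study's thresholds in WT-actin against parental, at 1.57, 0.592 and 17.6 in WT-actin against 17.0, 10.3 and 16.7 in parental cells, and these arrays overlapped. PAK2, the kinase of this module, had -0.16 in NLS-actin and -0.02 in WT-actin against parental.

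Zyxin and the other LIM proteins of the actin side did not pass the test. ZYX read 1050.3, 892 and 1102 in NLS-actin, 843, 979 and 1316 in WT-actin, and 1354, 1186 and 1297 in parental cells. The NLS-actin arrays lay below the parental arrays, at a log2 fold change of -0.34 (95% interval -0.74 to 0.07, adjusted p = 0.821), and WT-actin had -0.31 with 1 array inside the parental range. Both ZYX probe sets gave nearly the same values, -0.34 and -0.35 in NLS-actin and -0.31 and -0.26 in WT-actin against parental. TRIP6 and LPP, the zyxin relatives, had -0.12 and 0.06 in NLS-actin against parental, with SE 0.13 and 0.15.

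TES (testin), which binds zyxin, was read differently by its probe sets. The bright one, 202720_at, read 6609.8, 5773 and 7300.2 in NLS-actin, 7474, 7858 and 6094 in WT-actin, and 5485, 5499 and 6619 in parental cells, at log2 fold changes of 0.16 in NLS-actin and 0.28 in WT-actin against parental (adjusted p = 0.889 and 0.761). The other, 202719_s_at, read 559, 403 and 428 in NLS-actin, 446, 405 and 729.8 in WT-actin, and 725, 939 and 848 in parental cells. It was lower in NLS-actin than in parental cells on every array, at -0.86 (95% interval -1.38 to -0.34, adjusted p = 0.417 over all probe sets), and was -0.71 in WT-actin against parental. The mean of all TES probe sets turned the WT-actin value to -0.15.

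The PDZ-LIM genes PDLIM5 and PDLIM7 encode scaffolds of stress fibers. PDLIM5 stood at a log2 fold change of 0.26 for NLS-actin against parental (3432 to 3808 in NLS-actin, against 2675 to 3312 in parental cells), yet 4 of its 6 probe sets above the median in brightness had a negative value there. Among these, 216804_s_at read 466, 313 and 395 in NLS-actin, 286, 337 and 492 in WT-actin, and 572, 529 and 594 in parental cells, and lay below parental in both actin lines (-0.55 and -0.64). PDLIM7 read 1502, 996 and 1446 in NLS-actin, 1068, 1036 and 1096 in WT-actin, and 1496, 985 and 1505 in parental cells, at -0.01 and -0.29. A dim PDLIM7 probe set, 1569150_x_at, passed the study's thresholds in WT-actin against parental, at 14.8, 13.3 and 30.3 in WT-actin against 37.7, 30.1 and 104 in parental cells. SORBS3 (vinexin), a vinculin-binding adaptor, had 0.06 in NLS-actin and -0.09 in WT-actin against parental.

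NEXN (nexilin), an actin-binding protein of cell-matrix adhesions, varied most within a line among the members above the median signal. It read 317, 53.3 and 415 in NLS-actin cells, 127, 398 and 599 in WT-actin cells, and 574, 103 and 591 in parental cells. The low value of every line came from the array with the highest ACTB 3′ to 5′ ratio, and the highest array was up to 7.80 times the lowest of the same line. The log2 fold change of -0.77 in NLS-actin against parental had a 95% interval of -2.60 to 1.06 (adjusted p = 0.907), and with the replicate block in the NLS-actin and parental arrays alone the SE fell to 0.21 and the adjusted p was 0.0880. The GAPDH ratio of NLS-actin replicate 2 and parental replicate 2 was instead the lowest of their lines. The part of RNA integrity in these values was not tested.

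**Figure D3:**
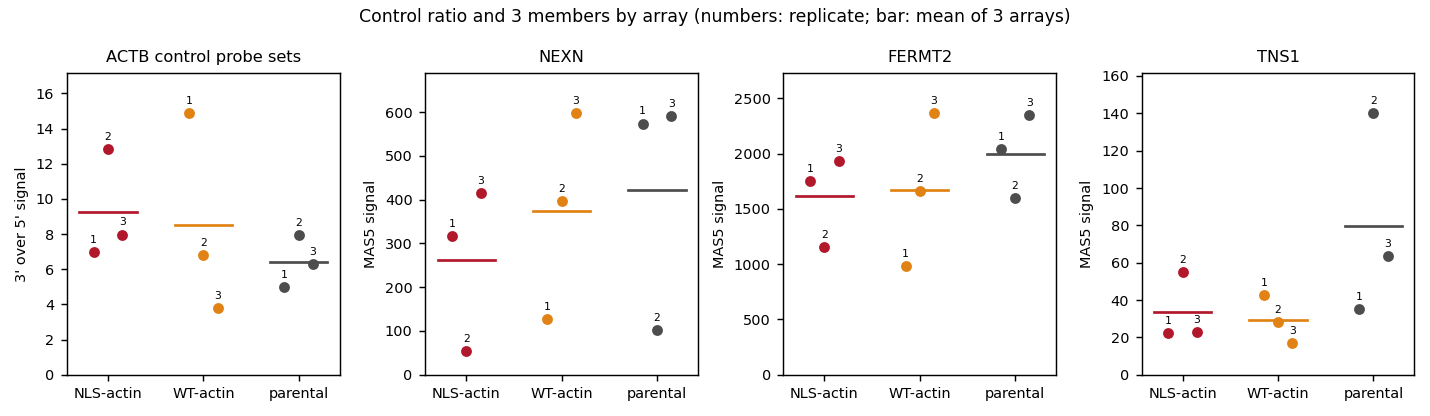
The ACTB 3′ to 5′ ratio (left) and the MAS5 signals of NEXN, FERMT2 and TNS1 on each array, with NLS-actin left, WT-actin in the middle and parental right in every panel; points are arrays numbered by replicate and bars are means of 3. The ratio is highest within each line on NLS-actin replicate 2 (12.817), WT-actin replicate 1 (14.912) and parental replicate 2 (7.961), the arrays on which NEXN and FERMT2 are lowest. On the same arrays TNS1 is highest within each line.

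NLS-actin replicate 2 held the lowest value of its line for 17 of the 35 members, WT-actin replicate 1 for 15 and parental replicate 2 for 19. The same arrays held the highest value of their line for 12, 13 and 5 members in that order, and WT-actin replicate 3 held the lowest for 12 and the highest for 19. Without the 3 arrays, 0 members were called in any comparison. At an unadjusted p below 0.05 there were then 5 members in NLS-actin against parental (14.3%, against 7.77% of all genes), 3 in WT-actin against parental (8.57%, against 6.95%) and 6 in NLS-actin against WT-actin (17.1%, against 10.9%). TNS4 was then at -0.63 and NEDD9 at -0.80 in NLS-actin against parental, and PARVA at 0.66 in WT-actin against parental and -0.76 in NLS-actin against WT-actin (adjusted p = 0.446, 0.442, 0.397 and 0.133 in that order).

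Dim probe sets gave larger values with wider errors than bright ones. The 84 probe sets of the members above the median signal had a median absolute log2 fold change of 0.26 in NLS-actin against parental, 0.24 in WT-actin against parental and 0.25 in NLS-actin against WT-actin, with a median SE of 0.28. The 43 that were not above it had 0.65, 0.69 and 0.54, with a median SE of 1.0. The study's thresholds were passed in some probe set by PTPN12 in NLS-actin against parental; by ARHGEF7, PDLIM7 and TNS1 in WT-actin against parental (3 of 35, or 8.57%, against 5.53% of all genes); and by ARHGEF7, PDLIM5, PDLIM7 and PTPN12 in NLS-actin against WT-actin (4 of 35, or 11.4%, against 8.23%). None of these came from a probe set with a mean signal above 47.5. Of the 22 members with more than 1 probe set above the median, all such probe sets had the same sign for 14 in NLS-actin against parental, 11 in WT-actin against parental and 12 in NLS-actin against WT-actin.

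**Figure D4:**
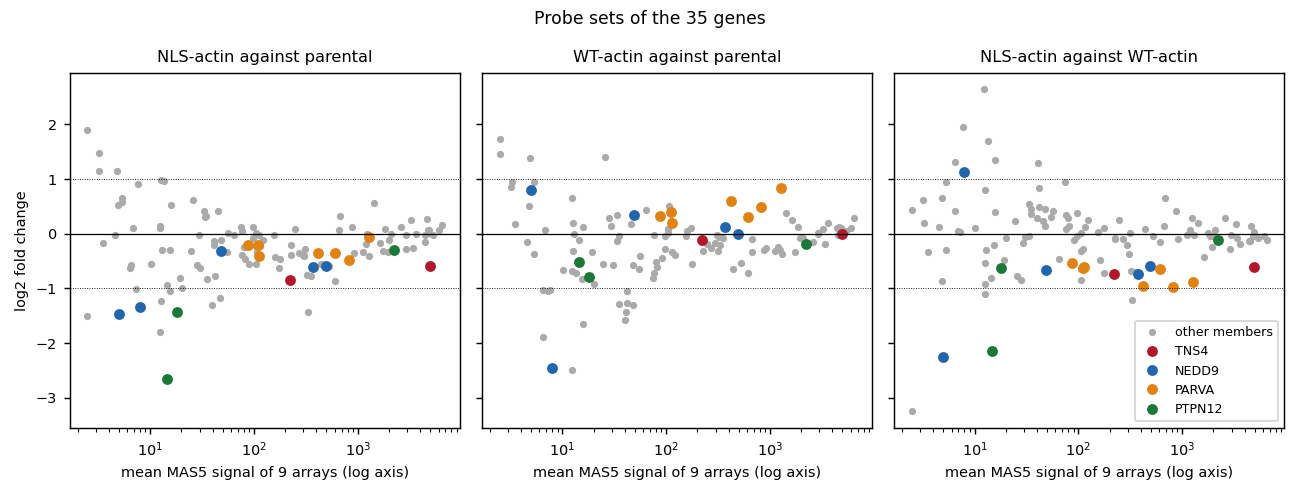
Log2 fold change of the 127 probe sets of the 35 genes against their mean MAS5 signal over 9 arrays (log axis) in the 3 comparisons; dotted lines mark 2-fold, and the probe sets of TNS4, NEDD9, PARVA and PTPN12 are coloured. The scatter widens to the left, the 7 PARVA probe sets lie above 0 in the middle panel and below 0 in the right panel, and the 2 PTPN12 probe sets far below 0 in the left panel are dim.

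Other genes of the focal adhesion, a further list of 43 with integrins, vinculin and the remaining parvins and tensins among them, gave the same count of calls. Of the 38 measured, 0 were called in each comparison. At an unadjusted p below 0.05 there were 5 in NLS-actin against parental (2 higher, 3 lower; 13.2%, against 6.44% of all genes), 3 in WT-actin against parental (2 higher, 1 lower; 7.89%, against 6.69%) and 5 in NLS-actin against WT-actin (1 higher, 4 lower; 13.2%, against 9.47%). In some probe set the study's thresholds were passed by 5 of the 38 in NLS-actin against parental, 1 higher and 4 lower (13.2%, against 6.41% of all genes), with ITGB1, PARVB, PARVG and VCL among them. On its brightest probe set VCL (vinculin), the actin-binding partner of talin, read 8930.3, 7827 and 9525 in NLS-actin, 8998, 9004 and 8309.6 in WT-actin, and 7795, 6976 and 8431 in parental cells. Its lines overlapped, and both actin lines had a log2 fold change of 0.18 against parental (adjusted p = 0.854 for NLS-actin and 0.821 for WT-actin). The VCL probe set past the study's thresholds, 200930_s_at, was dim, at 2.23, 0.765 and 6.90 in NLS-actin, 9.86, 14.2 and 13.5 in WT-actin, and 9.16, 22.2 and 18.1 in parental cells, and lower in NLS-actin than in parental cells at -2.76 on the log2 scale (adjusted p = 0.569 over all probe sets). ITGB1 (integrin β1) read 6957, 5536 and 7612 in NLS-actin, 8937, 8475 and 8392 in WT-actin, and 6995, 6390.4 and 7111 in parental cells. As with PARVA, the WT-actin arrays lay above those of both other lines (0.33 against parental, adjusted p = 0.683; NLS-actin against WT-actin -0.37, adjusted p = 0.360), and the NLS-actin and parental lines overlapped. Its dim probe set 215879_at passed the study's thresholds in NLS-actin against parental, with 0.669, 9.36 and 0.327 in NLS-actin, 9.12, 11.3 and 10.7 in WT-actin, and 17.6, 15.1 and 18.2 in parental cells, at -3.74 (adjusted p = 0.464 over all probe sets). Among its brighter probe sets, 1553678_a_at was at -0.63 and 1553530_a_at at -0.81 in that comparison, without overlap and with adjusted p of 0.666 and 0.681.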

How the data were processed

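RNA of 3 HaCaT lines was measured on 9 Affymetrix U133 Plus 2.0 arrays. The deposited intensity values were MAS5 signals, which the authors computed per probe set and scaled per array. Of 54675 probe sets, 62 controls were left out; 41091 of the others carried 1 gene symbol, of which 41037 were updated through Entrez identifiers. Symbols came from GEO's platform annotation and RefSeq. Probe sets of several genes (1801) or none (11721) named no gene. Each gene was read by the probe set of highest mean log2 signal, with no offset and no filter. Signal levels served to choose probe sets, to class them as bright or dim and to read the cell type markers. Since probes differ in affinity, such levels do not rank the abundance of different transcripts.

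Fits used limma 3.58.1 in R 4.3.3 (lmFit, eBayes with an intensity trend), over all 9 arrays with 1 mean per line and Benjamini-Hochberg adjustment over 19775 genes, or over 54613 probe sets for single probe sets and for the study's thresholds, which gave a p and a fold but no test for the arrays. On simulated data with 200 changed genes of 19775 (10 draws, NLS-actin against parental), the fit recovered 52.9% of 2-fold and 89.5% of 4-fold changes, with 4.24% false among its calls. The changed genes were all brighter than the median gene, so these shares do not cover dim genes such as LIMS1 and LIMS2. Noise was drawn independently for each array, without the deviations that the real arrays shared. The number of arrays limits the precision. CArG boxes were searched in RefSeq promoter windows.

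Per-array values are given by a rule: the 4 members of smallest p in each comparison, members with a probe set past the study's thresholds against parental, and TLN1, PXN, PTK2, ILK and ZYX. SRC, TGFB1I1, TNS3, FERMT2, NEXN, GIT1 and single probe sets of TES, PDLIM5 and NEDD9 were added after their values were seen. The members, role groups, lists and tests were chosen with earlier results of these data known.

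Replicate numbers come from the sample titles. The main fit used no replicate block, and the numbers were taken to pair arrays only in the block alternatives. Deviations of same-numbered NLS-actin and parental arrays from their line means correlated at 0.234, 0.79 and 0.416. The value of 0.79 came from NLS-actin replicate 2 and parental replicate 2, which stood apart. Unlike numbers also correlated (NLS-actin 1 with parental 3 at 0.534, NLS-actin 3 with parental 1 at 0.336). NLS-actin 1 was thus closer to parental 3 than to its own number. With WT-actin the same-number correlations ran between -0.596 and 0.515. The labels do not say what a number marks, so whether the numbers pair the arrays is not known. Alternatives were quantile normalization, an offset of 8.08 before log2, a filter on dim probe sets, no intensity trend, the mean of all probe sets, specific probe sets only, a replicate block, fits of 2 lines, Tukey's test, leaving out the 3 arrays that stood apart, and leaving out each replicate.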

Additional observations from a re-analysis of the deposited data

How the results depend on the processing

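Under the alternatives tried, no member was called in WT-actin against parental or NLS-actin against WT-actin, and 1 (TNS4) was called in NLS-actin against parental, under the replicate block in those arrays alone. Of 340 alternative values of named members, 329 kept their direction and side of the threshold. This count is a weak check. The log2 fold change could not move with no intensity trend, a replicate block, a fit of 2 lines or Tukey's test. Nor could it move when the array left out belonged to the line outside the comparison. Size was not counted: GIT2 at 0.26 without the 3 arrays and NEDD9 at -0.30 without parental replicate 1 kept their direction.

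The replicate block in a fit of NLS-actin and parental arrays alone, chosen after seeing the data, gave NLS-actin against parental 1 called member, 11 at an unadjusted p below 0.05 and 3 past the study's thresholds, against 378, 2654 and 1377 of all genes; TNS4 was at -0.59 with an adjusted p of 0.0399. The block over all 9 arrays gave 0 called members in each comparison, 2 members past the study's thresholds in NLS-actin against parental and 2 at an unadjusted p in WT-actin against parental, and the block within NLS-actin and parental, with WT-actin in the fit, gave 3 past the study's thresholds. Apart from TNS4 a replicate block changed no call of a member.

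Members at an unadjusted p below 0.05 numbered 3 in NLS-actin against parental, and 1 with no intensity trend, 1 with Tukey's test and 5 without the 3 arrays. They numbered 1 in WT-actin against parental, and 2 under quantile normalization, the offset, the filter on dim probe sets, a fit of 2 lines and Tukey's test, 3 without the 3 arrays and 0 with the mean of all probe sets. They numbered 4 in NLS-actin against WT-actin, and 2 with no intensity trend and 1 with Tukey's test.

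Members past the study's thresholds numbered 1 in NLS-actin against parental, and 0 with the filter and 2 without the 3 arrays. They numbered 3 in WT-actin against parental, and 0 under quantile normalization, 0 with Tukey's test, and 1 with no intensity trend and with specific probe sets. They numbered 4 in NLS-actin against WT-actin, and 0 with the offset, 1 with the filter, 2 with specific probe sets and 0 with Tukey's test.

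The members' median log2 fold change with the mean of all probe sets was -0.20 in NLS-actin against parental and -0.14 in WT-actin against parental, and -0.11 without the 3 arrays in the second; the medians of all genes were then -0.06, -0.12 and -0.04. Among named members close to 0 the sign turned for PXN (-0.46 with the mean of all probe sets), PTK2 (-0.02 under quantile normalization, -0.20 with the mean of all probe sets, from -0.03, without NLS-actin replicate 2, to 0.13 over left-out replicates) and ILK (-0.02 under quantile normalization, -0.01 without the 3 arrays, from -0.07, without parental replicate 1, to 0.07 over left-out replicates, with -0.02 without NLS-actin replicate 2) in NLS-actin against parental, for TES in WT-actin against parental (-0.15) and for KANK2 in NLS-actin against WT-actin (-0.07), both with the mean of all probe sets. The causes were not tested.

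With each replicate left out in turn, members at an unadjusted p ranged from 1 (without parental replicate 3) to 3 in NLS-actin against parental, from 1 to 4 (without WT-actin replicate 3; 3 without parental replicate 1; 2 without parental replicate 2 or 3, WT-actin replicate 1 or 2, or NLS-actin replicate 2) in WT-actin against parental, and from 2 (without WT-actin replicate 2 or NLS-actin replicate 1) to 6 in NLS-actin against WT-actin. Those past the study's thresholds ranged from 1 to 4 (without NLS-actin replicate 1 or 2; 3 without NLS-actin replicate 3 or parental replicate 2; 2 without parental replicate 1), from 0 (without parental replicate 3; 1 without WT-actin replicate 2) to 4, and from 2 (without WT-actin replicate 2) to 6 in the 3 comparisons. The medians ranged from -0.19 to -0.03 (without NLS-actin replicate 2), from -0.11 (without WT-actin replicate 3) to 0.00, and from -0.11 to 0.03 (without NLS-actin replicate 2). Signals below the median of 33.5 for LIMS1 (12.6) and LIMS2 (19.3), and close to it for TNS1 (47.5), limit what can be read of these genes.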
